A study of Homo sapiens with 17 samples.

Results

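The 35 genes described here encode the machinery of macroautophagy, from the kinase complex that starts it to the receptors that load its cargo. They were chosen by name from the 23368 genes of a count table of human HEK293T cells, with earlier results of these data known. In macroautophagy a double membrane, the phagophore, grows around cytoplasm or an organelle, closes into an autophagosome and fuses with the lysosome, where the content is degraded. The ULK1 kinase complex and a class III phosphatidylinositol 3-kinase start the membrane, ATG2 and ATG9 proteins bring lipid to it, and a conjugation system related to ubiquitin transfer attaches ATG8 family proteins to its lipid. Receptors such as NBR1 bind both the cargo and ATG8 proteins, and TFEB is a transcription factor that switches on autophagy and lysosomal genes when nutrients are short.

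HEK293T is a line derived from human embryonic kidney. The study asked which transcripts carry N4-acetylcytidine (ac4C), a modified cytidine made by the acetyltransferase NAT10, and whether the RNA-binding protein TDP43, encoded by TARDBP, guides NAT10 to them. Polyadenylated RNA was sequenced directly (input), after pull-down with an antibody against ac4C (IP), or after pull-down with control IgG. The 17 libraries came from cells labelled WT (3 input, 3 IP and 2 IgG) and from cells of the same line treated with siRNA against TARDBP, called siTDP43 below (3 input, 3 IP and 3 IgG). The labels name no control siRNA for the WT cells, give no time after transfection and do not say whether replicates were separate cultures, so p-values measure the spread between these libraries, which may be technical. In bulk RNA, fewer cells that make a transcript and less of it per cell cannot be told apart.

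Totals ran from 24542434 to 36583436 counts in the input libraries, from 8610070 to 21066215 in IP and from 3013989 to 9466855 in IgG, with the siTDP43 IgG libraries the shallowest. Levels are given as CPM, the read count scaled to a common library size by the trimmed mean of M values (TMM). This normalization takes most genes as unchanged. The paper states that RNA from the pull-downs was too dilute to measure and that a fixed volume entered each library. Ratios between IP, IgG and input below therefore compare shares within libraries, not amounts of RNA pulled down. TARDBP stood at 149.7, 157 and 151 CPM in the WT input libraries and at 98.7, 102 and 106 in those of siTDP43, which did not overlap. By this measure most of the TARDBP RNA remained in siTDP43 input. The markers of the line KRT8, KRT18, VIM, NEFL and NEFM had counts in every group but differed between genotypes in input, with KRT8 at 193 and 39.1 CPM, VIM at 788 and 262 and NEFL at 65.2 and 186 in WT and siTDP43. NEFM averaged 66.1 CPM in WT input and 2766 in WT IP. Their part in the members' results was not tested. By contrast the kidney factor PAX2 was near 0 in input (0.882 CPM in WT and 0.0975 in siTDP43). Of the markers of other cells, PTPRC was at 0 in all input libraries. GFAP and HBB averaged 18.4 and 8.06 CPM in siTDP43 IgG against 1.24 and 0 in siTDP43 input, and the part of such RNA in the IgG results below was not tested.

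Exons were searched for short sequences that the study links to acetylated transcripts or to TDP43, and windows of 4 members that stand out in the pull-downs are shown first. The word TCCCAGCT (UCCCAGCU in RNA) occurred in the exons of 8 of 35 members (22.9%) and of 19.6% of the 14036 genes tested in input RNA. The windows below are the 30 bases around it in hg19 (GRCh37), read 5′ to 3′ on the strand of the gene, with the word in capitals. ATG13, ATG2B, ATG4C and ATG4D hold it in coding sequence, as does CALCOCO2.
ATG13, chr11:46679126-46679155, plus strand: gaccgtccctaTCCCAGCTcctctcccatg
ATG2B, chr14:96781862-96781891, minus strand: gaaacacgactTCCCAGCTcaacccgccca
ATG4C, chr1:63307135-63307164, plus strand: cgaaaaatggaTCCCAGCTgtacaatagga
ATG4D, chr19:10663640-10663669, plus strand: acgacctctgcTCCCAGCTcgcccagccca
The other members with the word were ATG4A, ATG10 and ATG14. TDP43 is known to bind UG-rich RNA. The word TGTGCG occurred in 14 of 35 members (40.0%) and in 31.0% of tested genes, with 2 copies in ATG2A, 3 in WIPI2 and none in TFEB. An unbroken run of at least 5 TG units was present in 1 member, ATG10, and in 6.91% of tested genes. That run is 20 bases long and lies in the 3′ untranslated region, in capitals here.
ATG10, chr5:81550715-81550744, plus strand: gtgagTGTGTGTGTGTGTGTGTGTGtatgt
Only the gene strand was searched, and TGTGCG can overlap a TG run. The counts carry no position within a gene, so none of the values that follow is tied to these windows.

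In WT input RNA GABARAP, GABARAPL2 and ATG3 were the most abundant of these transcripts and the ULK kinases, the ATG2 lipid-transfer proteins and TFEB the least. Between genes, levels are compared as RPKM, the CPM per kilobase of exon. GABARAP led at 517 ± 18.0 RPKM (SD, n = 3), followed by GABARAPL2 at 283 ± 4.64 and by ATG3, the enzyme that conjugates ATG8 proteins to lipid, at 139 ± 4.499. MAP1LC3B followed at 81.3 ± 0.937 and GABARAPL1 at 70.3 ± 2.54. At the other end, ULK1 (1.03 ± 0.230), TFEB (0.975 ± 0.200), ATG2B (0.827 ± 0.135), ATG14 (0.817 ± 0.0676) and ATG2A (0.815 ± 0.0386) each lay within 1 SD of its neighbour in that order, and ULK2 was lower still at 0.134 ± 0.0542. MAP1LC3A, the LC3 paralog with no counts in any of the 6 input libraries, had at most 2 counts in any library and was not tested. The other 34 members passed the filter on low counts in every comparison. In siTDP43 input the order at the top changed: GABARAPL2 (314 ± 16.1 RPKM) and GABARAP (313 ± 9.20) were within 1 SD of each other, and VMP1 (134 ± 6.36) stood level with MAP1LC3B (134 ± 4.43). The summed level of the members was 2376 ± 3.28 CPM in WT input and 2649 ± 71.1 in siTDP43 input (SD, n = 3).

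**Figure D1:**
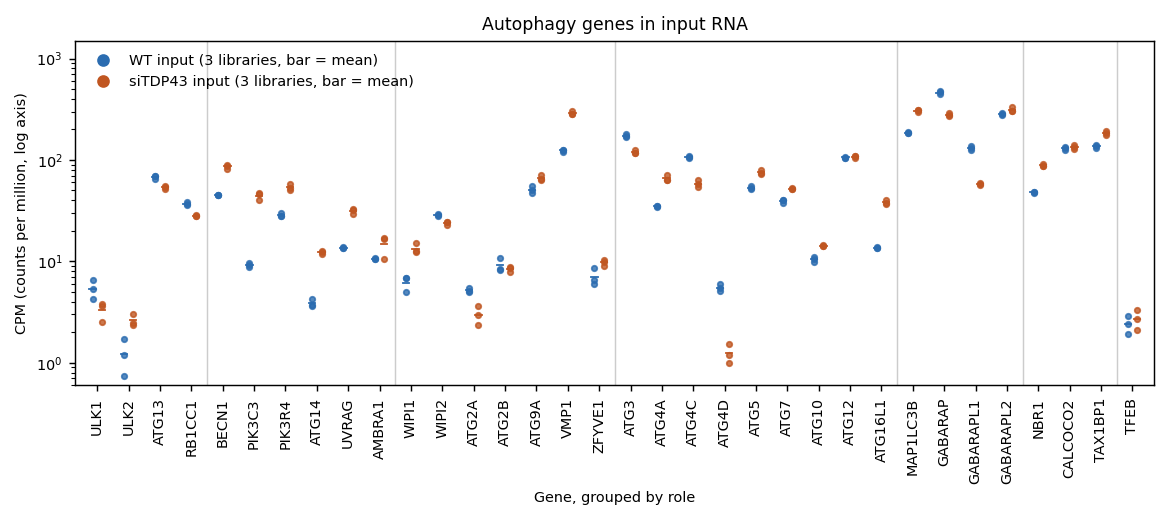
Level of the 34 tested members in input RNA, as CPM on a log axis, for the 3 WT and the 3 siTDP43 input libraries (points) with their means (bars), grouped by role and separated by grey lines. All 6 genes of the class III phosphatidylinositol 3-kinase group, from BECN1 to AMBRA1, have a higher mean in siTDP43, and ATG4D falls furthest, from 5.51 to 1.24 CPM.

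Most autophagy transcripts, like most transcripts tested, differed between siTDP43 and WT input, and more of them rose than fell. Of the 34 tested members 20 (58.8%) were higher and 10 (29.4%) lower in siTDP43 than in WT input (edgeR quasi-likelihood test, adjusted p under 0.05 over all genes tested). Over all 14036 tested genes, 38.6% were higher and 40.6% lower. The median log2 change was 0.42 over the members and -0.05 over all genes. ATG2B, ATG12, CALCOCO2 and TFEB did not pass. BECN1, ATG4D and ATG7 share exon bases with an opposite-strand gene, and whether counting used strand is not given in the sources used here. Their counts, in input and in the pull-downs, may therefore hold reads of that gene. Without BECN1, ATG4D and ATG7, 18 members were higher and 9 lower of 31. The shared part is 37.2% of the exon bases of BECN1 (with CNTD1), 17.6% of those of ATG4D (with KRI1) and 31.6% of those of ATG7 (with VGLL4).

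The genes of the lipid kinase that marks the nascent membrane all rose, and in 5 of 6 the libraries of the genotypes stood apart. These are the catalytic subunit PIK3C3, the regulatory subunit PIK3R4, the scaffold BECN1, the subunits ATG14 and UVRAG that define separate complexes, and AMBRA1, which binds BECN1. PIK3C3 (chr18:39535199-39661446 in hg19, plus strand) was at 8.89, 9.69 and 9.23 CPM in WT input and at 39.9, 46.6 and 47.3 in siTDP43 input. That is a log2 change of 2.27 (SE 0.0863, adjusted p = 7.63e-21), the largest rise of any member, with the groups far apart. ATG14 (chr14:55833109-55878576, minus strand) was at 3.67, 3.71 and 4.25 CPM in WT and at 11.9, 12.7 and 12.4 in siTDP43, a log2 change of 1.67 (SE 0.136, adjusted p = 1.56e-12). The other 4 rose by 0.50 to 1.204 on the log2 scale, AMBRA1, whose libraries overlapped between genotypes, least and UVRAG most. Over all genes tested in input 38.6% were higher, and the share whose libraries stood apart was not computed.

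Of the 4 genes of the kinase complex upstream of it, 1 was higher and 3 lower, where 38.6% and 40.6% of all tested genes were. ULK1 (log2 change -0.68), its partner ATG13 (-0.34) and the scaffold RB1CC1 (-0.39) were lower, while ULK2, the paralog of ULK1, was higher (1.10). ULK1 was read at 2.52 to 6.61 CPM in the input libraries, and once a smooth trend of counts with exon GC content was removed from each library its value was 0.24 with an adjusted p of 0.257. ULK2 was lower still, with a mean of 1.22 CPM in WT and 2.63 in siTDP43.

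Among the proteins that supply the membrane, 4 of 7 were higher and 2 lower, where 38.6% and 40.6% of all tested genes were. VMP1, a scramblase of the endoplasmic reticulum, rose by 1.23 on the log2 scale, from 124 ± 3.48 to 291 ± 13.8 CPM (SD, n = 3), and the lipid-binding protein WIPI1 by 1.12. ATG9A, the lipid scramblase of the seed vesicles, and ZFYVE1, a marker of phagophore sites, rose by 0.39 and 0.50. WIPI2, the paralog that recruits ATG16L1, fell by 0.25 and ATG2A by 0.81. With the GC trend removed ATG2A had a value of 0.12 (adjusted p = 0.594) and the fall of WIPI2 no longer passed.

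The conjugation genes were split, with 5 higher and 3 lower of 9, beside 38.6% and 40.6% of all tested genes. ATG16L1, which places the lipidation reaction on the membrane, was at 13.6, 13.7 and 13.5 CPM in WT and 37.1, 40.1 and 37.2 in siTDP43, a log2 change of 1.49 (SE 0.0788, adjusted p = 3.5e-17). ATG4A, ATG5, ATG7 and ATG10 rose by 0.41 to 0.93. Among those that fell, ATG4D (chr19:10654647-10664094, plus strand) was at 5.49, 5.95 and 5.10 CPM in WT and 1.51, 0.990 and 1.21 in siTDP43, a log2 change of -2.14 (SE 0.218, adjusted p = 2.5e-10) and the largest fall of any member. ATG4C was at 107, 104 and 109.6 CPM in WT and 53.9, 57.6 and 62.8 in siTDP43, a log2 change of -0.88 (SE 0.0542, adjusted p = 1.85e-15). ATG3 fell by 0.52. ATG4A, ATG4C and ATG4D are paralogous proteases that trim ATG8 proteins before lipidation, of which ATG4A rose and the other two fell. Their paralog ATG4B, no member here, averaged 36.7 CPM in WT and 38.1 in siTDP43 and did not pass.

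The ATG8 proteins, which coat the membrane and hold the receptors, also divided. GABARAP was at 444, 475 and 466 CPM in WT input and 274, 275 and 289 in siTDP43, a log2 change of -0.72 (SE 0.0393, adjusted p = 8.33e-17). GABARAPL1 was at 136, 131 and 127 CPM in WT and 56.5, 58.4 and 59.7 in siTDP43, a log2 change of -1.17 (SE 0.0493, adjusted p = 1.13e-19). MAP1LC3B, the LC3 form used as the common marker of autophagosomes, was at 185, 188 and 184 CPM in WT and 295, 311 and 314 in siTDP43. It rose by 0.72 on the log2 scale with no overlap, while the falls of GABARAP and GABARAPL1 left no overlap either. GABARAPL2 was at 288, 279 and 283 CPM in WT and 303, 307 and 333 in siTDP43, a change of 0.16 (adjusted p = 0.000889) that became -0.06 (adjusted p = 0.114) with the GC trend removed. The paper states that uniquely mapped reads were counted. Reads of the ATG8 genes that match near-identical processed copies elsewhere in the genome may thus be left out, which these counts do not resolve. Of the receptors, NBR1 rose by 0.88 and TAX1BP1 by 0.43, and CALCOCO2 averaged 130 CPM in WT and 134 in siTDP43.

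Further lists place these values, beside 38.6% higher, 40.6% lower and a median log2 change of -0.05 over all tested genes. Among 35 other autophagy genes (more receptors, fusion and tethering factors), 20 were higher, 4 lower and 11 did not pass in siTDP43 input, with a median log2 change of 0.50. Among those averaging at least 100 counts over the libraries compared, with no overlap between groups, VPS41 and VPS18, subunits of the HOPS complex that tethers autophagosomes to lysosomes, had the largest rises (1.83 and 1.79). YKT6 and STX17, membrane fusion proteins of the autophagosome, fell by 1.62 and 0.52, while VAMP8 and SNAP29, with which STX17 forms a fusion complex, rose by 1.19 and 0.19. Among 20 nutrient signalling genes, 7 were higher and 11 lower, the lowest being STK11 at -3.00 with under 100 counts on average. At 100 counts or more RRAGA, a GTPase that brings mTORC1 to the lysosome, rose by 1.81 and PRKAA1, a catalytic subunit of the energy sensor AMPK, by 1.39, whereas TFE3, the paralog of TFEB, fell by 2.697 and AKT1S1, an inhibitory subunit of mTORC1, by 2.14.

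**Figure D2:**
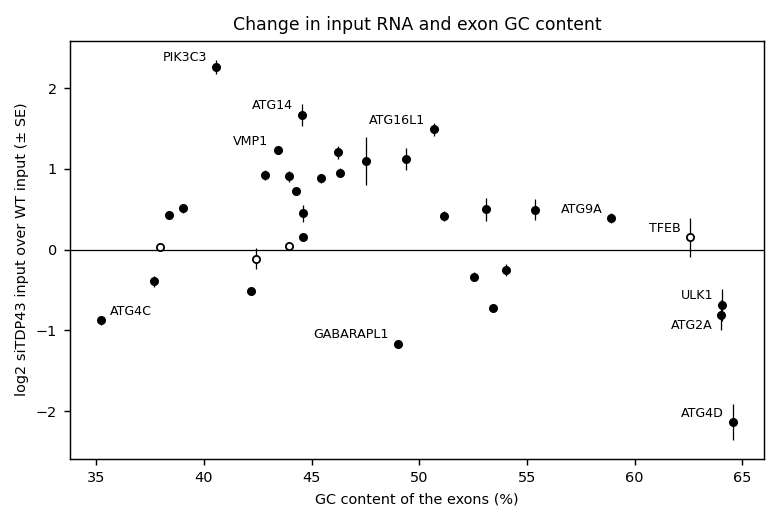
Log2 change of each tested member between siTDP43 and WT input (points, with the standard error of the fit) against the GC content of its exons in percent, with open points for members that did not pass. ULK1, ATG2A and ATG4D, at 64.0% to 64.6% GC, lie below 0, and the largest rises, PIK3C3, ATG14 and ATG16L1, lie at 40.6%, 44.6% and 50.7%.

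The richest in G and C of the tested members, ATG4D, ULK1 and ATG2A, all fell, as the plot of input change against GC content shows. The next richest, TFEB (62.6% GC) and ATG9A (58.9%), did not fall. With the GC trend removed only ATG4D of the first 3 kept its call (-1.17). Exon GC content ran from 35.2% for ATG4C to 64.6% for ATG4D, with a median of 46.2% over the members and 49.1% over tested genes. Spearman's rho between GC content and input change was -0.21 over 34 members and -0.32 over 14036 genes, which share the same libraries and are not replicates. ATG4C fell at the lowest GC content of all.

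More autophagy transcripts were depleted from the ac4C pull-down than enriched in it, relative to input. In WT, 5 members were higher in IP than in input and 14 lower (adjusted p under 0.05 and over 2-fold), where 30.2% and 27.3% of 14751 tested genes were. The median log2 IP over input was -0.60 over the members and 0.01 over all genes. Those above input were ULK1, ULK2, RB1CC1, ATG2A and TFEB, which include 3 of the 4 genes of the ULK1 complex. No conjugation gene was above input and 6 of 9 were below. The summed level of the members was 1790 ± 16.9 CPM in WT IP (SD, n = 3), under that of input.

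The control IgG differed from input for many genes, members and others alike. In WT, 8 members (23.5%) were over 2-fold higher in IgG than in input and 15 (44.1%) lower, where 24.4% and 36.6% of all tested genes were. ULK1, ULK2 and RB1CC1 were among those that were higher in IgG, at log2 values of 3.18, 2.51 and 1.72, each above its value in IP over input. When IP was set against IgG, 8 members were higher and 11 lower in WT, where 35.2% and 17.8% of tested genes were, and none of the ULK1 complex was higher. The depth of a pull-down limits the lowest of these values: BECN1, WIPI1 and TFEB had 2 counts in all over the 2 WT IgG libraries. Since most low counts are even, as when both mates of a pair are counted, such ratios are taken over read pairs, and those 2 counts are 1 pair. For BECN1, IP stood 14.9 times above IgG (95% exact counting interval 2.56 to 599) while the level in IP was 1.49 ± 0.233 CPM against 45.0 ± 0.143 in input. Such intervals cover counting error only.

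**Figure D3:**
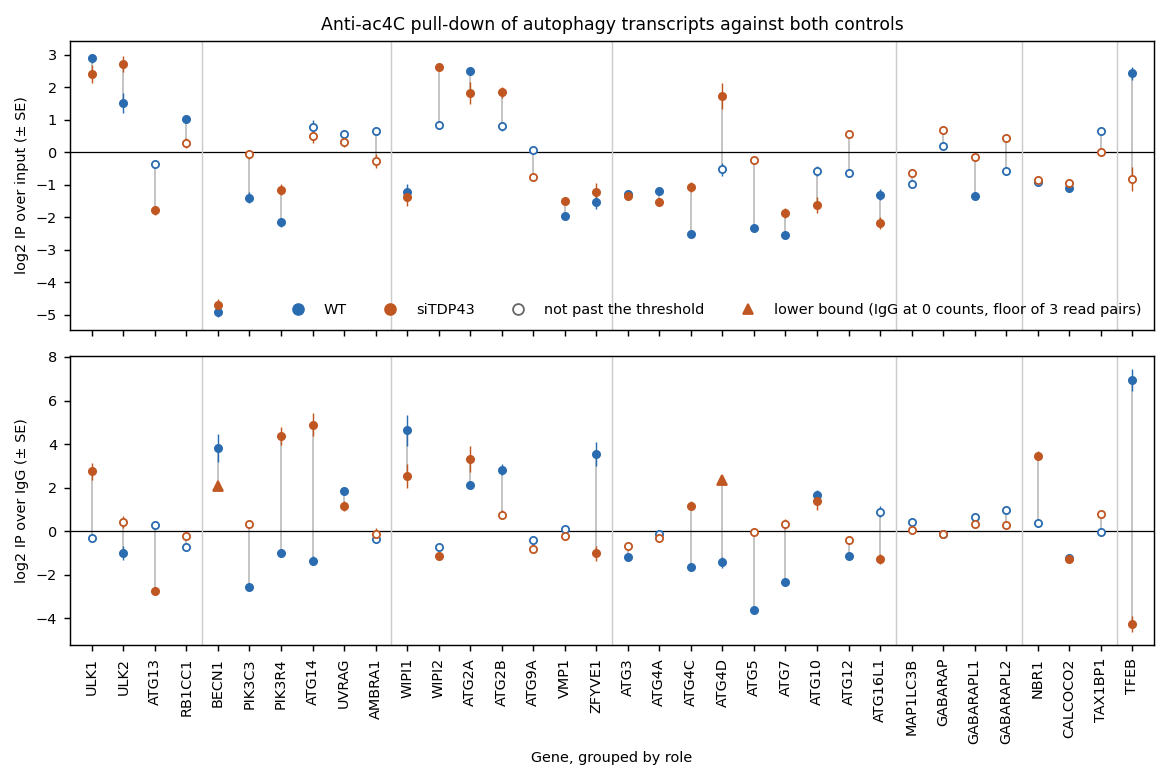
Log2 ratio of the ac4C pull-down to input (upper panel) and to IgG (lower panel) for the 34 tested members in WT (blue) and siTDP43 (orange), with the standard error of the fit, open points for ratios that did not pass adjusted p under 0.05 and 2-fold, and triangles for lower bounds (floor of 3 read pairs) where IgG had 0 counts in all 3 libraries. TFEB lies at 6.93 in WT and -4.26 in siTDP43 in the lower panel. ULK1, ULK2 and RB1CC1 of the ULK1 complex are above input but not above IgG in WT, while ATG13 is below input.

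The study calls a transcript ac4C(+) when IP exceeds both input and IgG. By the thresholds above, 2 of 34 members were ac4C(+) in WT, ATG2A and TFEB, where 15.6% of tested genes were. In siTDP43 they were 3 of 34, ULK1, ATG2A and ATG4D, where 10.3% of 12746 tested genes were. ATG2A was in both sets. Neither ATG2A nor TFEB holds the word TCCCAGCT in its exons, and ATG4D does.

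TFEB (chr6:41651716-41703997, minus strand) changed places between the pull-downs. Its level was 1.92, 2.39 and 2.91 CPM in WT input, 13.97, 13.4 and 11.4 in WT IP and 0 and 0.206 in the 2 WT IgG libraries. In siTDP43 it was 2.08, 3.29 and 2.695 CPM in input, 1.19, 1.01 and 1.99 in IP and 29.4, 25.9 and 19.2 in IgG. Input did not separate the genotypes, IP was high in WT alone and IgG was high in siTDP43 alone, with no overlap between genotypes in either pull-down. In WT, IP exceeded input by a log2 value of 2.42 (SE 0.198, adjusted p = 5.01e-11) and stood 130 times above IgG by read pairs (95% exact counting interval 23.2 to 5139.6, from 462 pairs and 1). In siTDP43, IP was below IgG by a log2 value of -4.26 (SE 0.37, adjusted p = 1.66e-09).

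ATG2A (chr11:64662004-64684722, minus strand) was the member above both controls in each genotype. It stood at 5.09, 5.01 and 5.47 CPM in WT input, 30.9, 28.4 and 28.2 in IP and 7.18 and 6.17 in IgG. In siTDP43 it stood at 2.33, 2.93 and 3.62 CPM in input, 8.10, 13.2 and 6.73 in IP and 1.47, 1.21 and 0 in IgG, with 7 counts in all over the 3 IgG libraries. The IP libraries were the highest in both genotypes. With the GC trend removed, the log2 values dropped under the 2-fold line, to 0.90 for WT IP over IgG and 0.43 for siTDP43 IP over input.

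ULK1 (chr12:132379279-132407707, plus strand) was above input in both genotypes and above IgG in siTDP43 alone. It stood at 6.61, 5.32 and 4.22 CPM in WT input, 39.4, 38.2 and 40.3 in IP and 56.6 and 38.4 in IgG. In siTDP43 it stood at 3.66, 3.80 and 2.52 in input, 16.3, 15.1 and 16.3 in IP and 4.41, 0.809 and 1.42 in IgG. IP was above input in both genotypes without overlap, whereas WT IgG overlapped the WT IP libraries and siTDP43 IgG lay below those of IP. ATG4D stood at 4.88, 2.69 and 3.90 CPM in WT IP and 9.80 and 10.5 in WT IgG. In siTDP43 it stood at 4.31, 4.05 and 2.74 in IP and had no count in any of the 3 IgG libraries, so that IP was at least 5.11-fold above IgG, taking 3 read pairs over the group as the floor. Its siTDP43 IP over input, 1.73 on the log2 scale, was 0.23 with the GC trend removed.

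**Figure D4:**
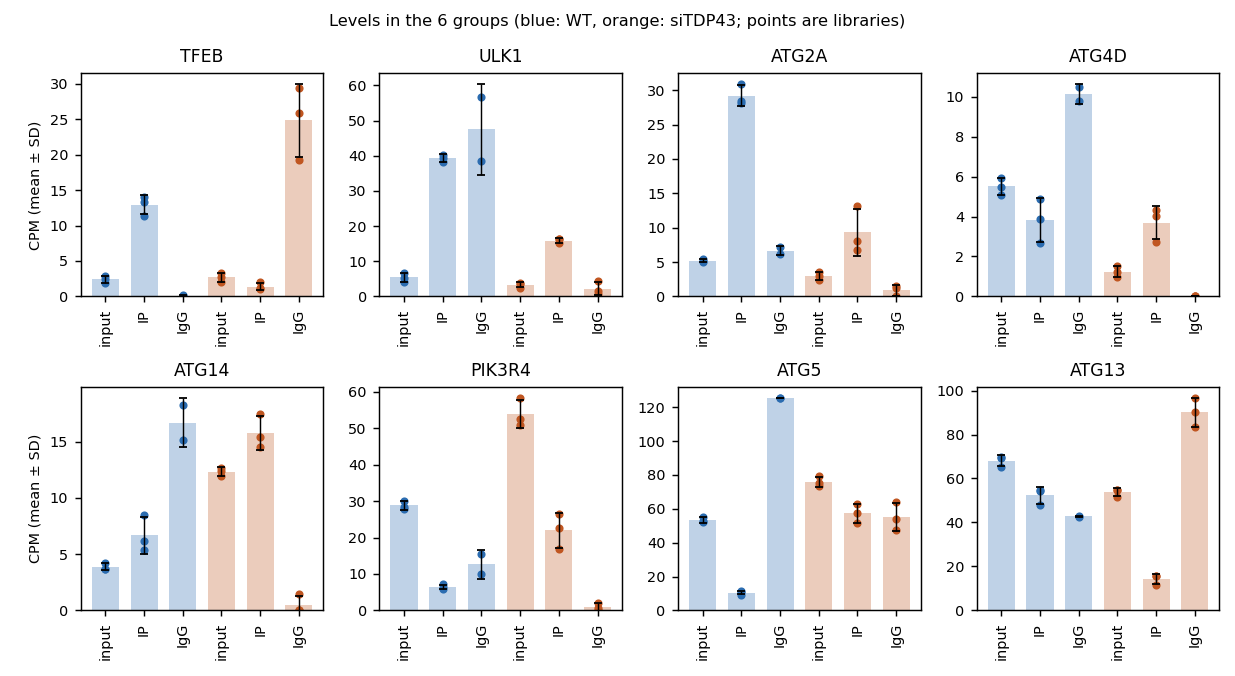
CPM of 8 members in the 6 groups (blue for WT and orange for siTDP43; points are libraries, bars the mean and whiskers the SD; n = 2 for WT IgG and 3 elsewhere), each panel with its own axis from 0. The IgG libraries of the 2 genotypes do not overlap in any of these panels, as for TFEB (0.103 and 24.8 CPM) and ATG14 (16.7 and 0.474 CPM). These members were named by rules that use IP over IgG, which favours such gaps. The share of all genes with no overlap in IgG was not computed.

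In siTDP43 as a whole, 6 members were higher and 12 lower in IP than in input, where 26.8% and 25.4% of tested genes were. Against IgG, 11 were higher and 6 lower, where 34% and 15% were. IgG itself was over 2-fold above input for 4 members and below it for 12, where 24.7% and 41% were. WIPI2 and ATG2B joined ULK1, ULK2, ATG2A and ATG4D above input. None of the 4 tested ATG8 genes was over 2-fold away from either control in siTDP43, and in WT none was over 2-fold away from IgG.

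The difference in IP over input between genotypes was tested directly, as an interaction over all 17 libraries. It was higher in siTDP43 for 14 members and lower for 11, where 31.5% and 36.3% of 15165 tested genes were. The median was 0.05 over the members and -0.19 over all genes. By rank among members with enough counts and no overlap between genotypes in the IP level taken over the mean of input, the largest rises were in ATG5, WIPI2 and ATG4C and the largest falls in TFEB, ATG13 and ATG10.

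ATG5, the acceptor to which ATG12 is conjugated, was over 2-fold below input in the WT pull-down and did not pass in that of siTDP43. It was at 52.0, 55.3 and 53.1 CPM in WT input and 9.34, 11.5 and 10.8 in IP, against 75.1, 73.4 and 79.4 in siTDP43 input and 57.4, 51.7 and 63.0 in IP. The difference in log2 IP over input was 1.93 (SE 0.14, adjusted p = 8.35e-15). In IgG it was at 125 and 126 CPM in WT and 63.9, 54.2 and 47.7 in siTDP43, so the WT pull-down with the ac4C antibody was the low group.

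WIPI2 was higher in both pull-downs of siTDP43 than in those of WT, with no overlap. It was at 28.4, 29.6 and 28.0 CPM in WT input, 49.2, 50.7 and 54.5 in IP and 80.1 and 89.7 in IgG. In siTDP43 it was at 24.6, 24.5 and 23.0 in input, 136, 125 and 140.1 in IP and 280.5, 280.0 and 270.1 in IgG, the highest group of all 6. The difference in IP over input was 1.63 (SE 0.113, adjusted p = 1.75e-15), and that in IP over IgG was -0.33. ATG4C was at 20.05, 17.9 and 18.0 CPM in WT IP and 25.4, 19.9 and 29.4 in siTDP43 IP, which just overlap, but set over an input that was lower in siTDP43 the genotypes lay apart, and its difference in IP over input was 1.29 (SE 0.165, adjusted p = 1.3e-08).

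ATG13, the regulatory subunit of the ULK1 complex, fell in the ac4C pull-down relative to both controls. It was at 65.3, 69.8 and 69.2 CPM in WT input, 54.3, 47.8 and 55.0 in IP and 43.0 and 42.5 in IgG. In siTDP43 it was at 54.6, 54.8 and 51.7 in input, 11.5, 15.5 and 15.4 in IP and 96.6, 83.4 and 90.4 in IgG. The difference was -1.56 (SE 0.146, adjusted p = 7.8e-12) over input and -2.98 (SE 0.169, adjusted p = 8.99e-18) over IgG. For TFEB the difference over input was -3.40 (SE 0.41, adjusted p = 3.64e-09). ATG10, the enzyme that joins ATG12 to ATG5 and the member with the TG run shown above, was at 9.95, 10.5 and 11.1 CPM in WT input and 6.28, 7.63 and 7.18 in IP. In siTDP43 it was at 14.4, 14.2 and 14.2 in input and 3.86, 4.25 and 4.48 in IP, and the difference over input was -1.20 (SE 0.275, adjusted p = 0.000239). ULK1 and ATG2A passed in this comparison at -0.62 and -0.83, and both calls were lost when single libraries were left out, among them WT input replicate 3 for ULK1 (-0.47) and siTDP43 IP replicate 3 for ATG2A (-0.66).

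Set against IgG, the difference between genotypes was higher in siTDP43 for 14 members and lower for 9, where 34.9% and 25.9% of tested genes were. The median was 0.17 over the members, or 0.03 when groups with 0 to 3 read pairs enter by their pairs, and 0.24 over all genes. RB1CC1, ATG3, ATG12 and TAX1BP1, 4 of the 14, took the opposite sign with the GC trend removed. Among members averaging at least 100 counts, the largest rises were in ATG14, PIK3R4 and ATG5 (3.62) and the largest falls in TFEB, ATG13 and ATG2B. Below that limit ATG4D, with no count in siTDP43 IgG, and ZFYVE1 (-4.48) also passed.

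ATG14 and PIK3R4, subunits of the same lipid kinase complex, shared a pattern. ATG14 was at 6.20, 5.35 and 8.51 CPM in WT IP and 18.2 and 15.1 in WT IgG, against 14.5, 17.4 and 15.4 in siTDP43 IP and 0, 0 and 1.42 in siTDP43 IgG. PIK3R4 was at 28.3, 27.9 and 30.1 CPM in WT input, 7.11, 6.33 and 5.85 in IP and 15.5 and 9.88 in IgG. In siTDP43 it was at 50.8, 52.6 and 58.3 in input, 16.8, 26.3 and 22.7 in IP and 0.734, 0 and 2.13 in IgG. In both genes, which were named for their rise over IgG, IgG lay above IP in WT and below it in siTDP43. The rest of the lipid kinase group did not all share this. UVRAG had IP above IgG in both genotypes (19.9 and 5.41 CPM in WT, 35.5 and 15.2 in siTDP43), as did BECN1 with almost no IgG counts. In AMBRA1 and PIK3C3 the IP and IgG libraries of siTDP43 overlapped. The difference in log2 IP over IgG was 6.28 (SE 0.549, adjusted p = 1.2e-12) for ATG14, whose siTDP43 IgG libraries held 4 counts in all, and 5.42 (SE 0.462, adjusted p = 6e-13) for PIK3R4, with 8 counts.

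For TFEB the fitted difference over IgG was -11.11 (SE 0.644, adjusted p = 1.62e-17), or -11.28 from read pairs, and its size rests on the 2 counts in WT IgG. ATG2B, the paralog of ATG2A, was at 14.2, 16.6 and 16.9 CPM in WT IP and 2.33 and 2.06 in WT IgG, and at 27.3, 25.1 and 29.3 in siTDP43 IP and 10.3, 18.6 and 17.1 in siTDP43 IgG. All 4 groups lay apart from one another except siTDP43 IgG and WT IP, and the difference was -2.02 (SE 0.35, adjusted p = 3.93e-06). BECN1, with 2 counts in WT IgG and none in siTDP43 IgG, did not pass.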

How the data were processed

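Reads of the 17 libraries were made from polyadenylated RNA by the Smart-seq2 procedure. The authors deposited raw counts per gene with exon coordinates of hg19; the submitters' processing notes name Trim Galore 0.6.7, STAR 2.7.10a and featureCounts 2.0.2, and list the mouse build mm10 for these human samples, which the human coordinates of the table go against. Low counts were 81.3% to 95.9% even, as when both mates of a read pair are counted. Groups follow the labels. Counts were fitted with edgeR 4.0.16 in R 4.3.3 (TMM, filterByExpr with a minimum count of 10, quasi-likelihood F test, two-sided, Benjamini-Hochberg over all genes tested), within inputs, within each genotype, and over all 17 libraries for changes of enrichment. Enrichment needed adjusted p under 0.05 and over 2-fold, other calls adjusted p under 0.05. The scripts were tested on simulated data. Between replicates the counts differed beyond sampling noise, so none was taken as a duplicate. Fitted folds against groups with few counts depend on the prior count, so for groups with 0 to 3 read pairs (counts halved and rounded up, a unit chosen after seeing the data) ratios of pairs are given, with exact binomial 95% intervals. Exon sequence came from the GRCh37 genome. The window of ATG14 is not reported here.

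Named in full were, for the input and both change contrasts, the 3 largest rises and 3 largest falls among called members averaging 100 counts or more whose libraries stood apart, the ac4C(+) members and the ATG8 genes, and of the other lists the 2 largest rises and falls in input under the same limits. The members and lists were chosen with earlier results of these data known. Alternatives were DESeq2 1.42.0, limma 3.58.1 on log2(FPKM + 1), other scalings and filters, a replicate block, halved counts, removal of the GC trend, thinned WT libraries (added after seeing the data) and leaving out each library.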

Additional observations from a re-analysis of the deposited data

Results flagged for a closer look

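Opposite calls in the 2 genotypes, each over 2-fold in IP against IgG with a difference that passed over all 17 libraries (edgeR, adjusted p under 0.05), were found for 6 members. The same rule was not counted over all genes, so whether 6 is many cannot be said. In the difference alone 34.9% of all tested genes were higher and 25.9% lower. ATG14 was below IgG in WT (log2 -1.34) and above it in siTDP43 (4.89), a difference of 6.28. PIK3R4 went from -1.004 to 4.36, a difference of 5.42, and its WT value lies at the 2-fold line and was -0.64 without WT IgG replicate 1. ATG4C went from -1.66 to 1.18, a difference of 2.89, and its siTDP43 value was 0.08 with the GC trend removed.

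ATG4D went from -1.43 in WT to at least 5.11-fold above IgG in siTDP43. Its fitted difference of 10.56 rests on 0 counts in siTDP43 IgG and was 3.78 with 3 read pairs over that group in their place. ZFYVE1 went the other way, from 3.55 in WT, where IgG held 4 counts in all, to -1.01 in siTDP43, a difference of -4.48. TFEB went from 6.93 to -4.26, a difference of -11.11 that rests on 2 counts in WT IgG.

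In IP over input none of the 6 had opposite calls. The 6 were picked by IP over IgG, so an IgG level that moves with the result is largely built in. ATG14 had 16.7 CPM in WT IgG and 0.474 in siTDP43 IgG, PIK3R4 12.7 and 0.956, ATG4C 58.0 and 10.5, ATG4D 10.1 and 0, ZFYVE1 0.200 and 7.28, and TFEB 0.103 and 24.8. The part of these IgG levels in the differences was not tested.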

How the results depend on the processing

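Of 190 member values that passed a threshold, their 3698 recomputed values kept direction and call in 3511 cases, lost the call in 178 and turned sign in 9. Leaving out single libraries gave 1943 of these recomputed values, of which 1868 kept both. Removal of the GC trend lost 26 of 190 calls and turned 8, and limma lost 39 and turned 1. With the GC trend removed the input changes of ULK1 (0.24), ATG2A (0.12) and GABARAPL2 (-0.058), the siTDP43 IgG over input of ATG4A (0.034) and the changes over IgG of RB1CC1 (-0.60), ATG3 (-0.30), ATG12 (-0.33) and TAX1BP1 (-0.23) turned, and under limma so did the change over input of VMP1 (-0.028). With the GC trend removed, 8 members were above input in WT IP, 9 below input in WT IgG, 13 below IgG in siTDP43 IP, 12 above input in siTDP43 IgG, 14 lower in the change over IgG and 1 ac4C(+) in siTDP43. Under limma on log2(FPKM + 1), 9 were below input and 7 below IgG in WT IP, 5 above input in WT IgG, 2 above input and 3 below IgG in siTDP43 IP, 2 above input in siTDP43 IgG and 1 ac4C(+) in siTDP43. A 5-fold limit over IgG left 1 ac4C(+) member in WT, and IgG as the only control gave 8 in WT and 11 in siTDP43. The input counts (20 higher, 10 lower) held under every alternative within 1.5 times.

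Total count scaling moved the all-gene median of siTDP43 IgG over input from -0.58 to -1.13, of siTDP43 IP over input from -0.09 to -0.43 and of the change over input from -0.19 to -0.48, and DESeq2 size factors moved that of the change over IgG from 0.24 to 0.03. DESeq2's own test put it at -0.13, with 4994 genes higher and 5432 lower against 5293 and 3923. Calls over all genes in WT IP over IgG were 5186 higher and 2629 lower, and 4027 and 4267 with the GC trend removed; in siTDP43 they were 4328 and 1913, and 3148 and 3697. Same-numbered libraries hardly deviated together (r from -0.02 to 0.03 over 19 pairs). Of 30 comparisons 13 put a library best with its own number, unevenly. They were 6 of 6 between siTDP43 input and IgG, 4 of 6 between siTDP43 input and IP, and 1 of 6 in each other pair of groups compared. With the replicate number as a block 20 members were higher and 10 lower in input, and 3 of 190 calls were lost. Depth limits siTDP43 IgG most, with 3013989 to 3436811 counts.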
